A study of Mus musculus with 6 samples.

Results

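The adipocyte lineage genes described here are 10 genes chosen by name: the transcription factors Pparg, Cebpa, Cebpb and Cebpd, the lipid uptake and transport genes Lpl, Cd36 and Fabp4, the lipid droplet coat genes Plin1 and Plin2, and the hormone gene Adipoq. All 10 were found by symbol among the 21666 Ensembl genes of the count matrix. The RNA came from satellite cells of mouse skeletal muscle, which are the resident stem cells of that tissue, after 2 days of differentiation in culture. There were 3 libraries from wild-type (WT) mice and 3 from mice that lacked the long noncoding RNA lncMREF (KO). The sources used here do not give strain, age, the knockout allele or whether the replicates came from separate animals, and p-values therefore rest on a spread between libraries that may be technical. The lncMREF transcript was not matched to an Ensembl identifier, and the knockout was therefore not checked from the counts.

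Fat cell formation is driven by a cascade of transcription factors. Cebpb and Cebpd act early and switch on Pparg and Cebpa, which then maintain each other and turn on the genes of lipid uptake and storage and of fat hormones. In muscle, fat cells arise from fibro-adipogenic progenitors rather than from satellite cells. Several of the 10 genes also work outside fat: lipoprotein lipase, Cd36 and Plin2 serve muscle fibres and macrophages, and Fabp4 and Cd36 are made by capillary endothelium and macrophages.

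Library totals ran from 17919826 to 28430678 counts in the matrix, from which all values are taken; separate tables for each library hold very different counts for these genes (for Lpl a mean of 0.167, against 3212 in the matrix). Levels are given as counts-per-million (CPM) values after scaling by the trimmed mean of M-values (TMM), and changes as log2 of KO over WT from edgeR's quasi-likelihood test with Benjamini-Hochberg adjustment over all tested genes. Calls were made where the adjusted p was below 0.05. The difference between genotypes was broad: 10353 of 15518 tested genes were called, 50.5% of them higher in KO, or 66.1% with library size only as the scaling. That scaling moved the median change of all genes from 0.02 to 0.19. Myogenic markers were present in all libraries, led by Myh3 and Acta1, with a summed level over 12 genes of 19600 to 20340 CPM in WT and 4715 to 4799 CPM in KO. Of these 12 genes, 10 were lower in KO. The satellite cell factor Pax7 was higher (0.53, SE 0.10, adjusted p 1.12e-05), and Myf5 was not called (-0.15, adjusted p 0.346; 0.02 with library size only); both were named after their values were seen. Markers of other cells were present too. Over 16 endothelial genes, 14 were lower and 2 higher in KO, with sums of 548 to 559 CPM in WT and 273 to 283 CPM in KO. Over 17 tested macrophage genes, 14 were higher in KO and the lowest change was 0.03, with sums over 18 genes of 128 to 140.4 CPM in WT and 413 to 427 CPM in KO. Over 12 Schwann cell genes, 9 were higher and 2 lower, with sums of 559 to 560.4 CPM in WT and 1051 to 1078 CPM in KO. No marker of these 4 lists was at 0 in every library. In bulk RNA, fewer cells of a type and less RNA per cell cannot be told apart.

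The adipocyte lineage genes did not move as a block. Fabp4, Lpl, Cd36 and Cebpd were lower in KO, Cebpa and Plin2 were higher, Pparg and Cebpb were not called, and the fat-cell genes Adipoq and Plin1 were at the edge of detection in both genotypes. Of the 10 genes, 8 passed the filter on low counts and 6 of these were called, beside 66.7% of all tested genes. In KO, 2 were higher, beside 33.7% of all tested genes, and 4 were lower, beside 33%. The share called among the 8 thus lay near the background. The median change of the 8 was -0.10, against 0.02 for all tested genes; with library size only these were 0.07 and 0.19. Only Fabp4 and Cebpa among them changed by over 2-fold, a size of change that 17.9% of tested genes had. The 3 KO libraries lay wholly outside the range of the 3 WT libraries for 6 of the 8 genes, beside 69.4% of all tested genes: above it for 2, beside 35.3%, and below it for 4, beside 34.1%.

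**Figure D1:**
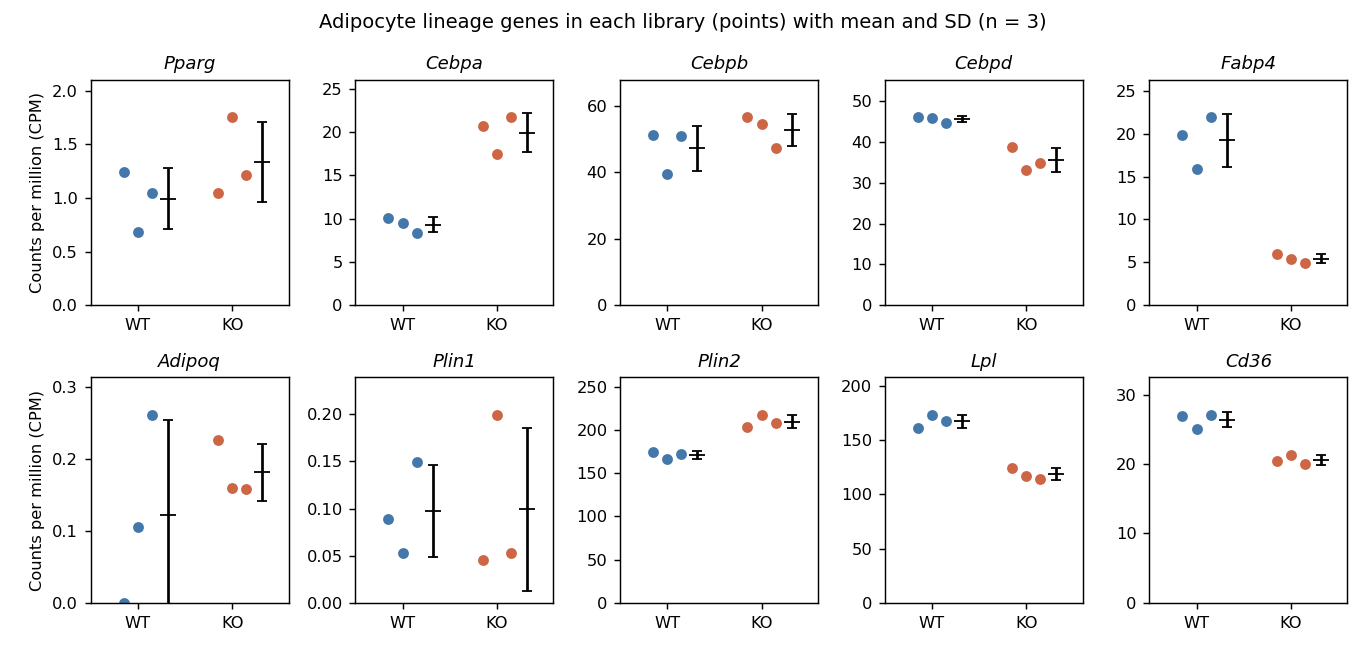
Level of each of the 10 adipocyte lineage genes in CPM (vertical axis from 0) in the 3 WT and 3 KO libraries; each point is a library, and the black bar is the mean with its SD, which is drawn down to 0 at most. Fabp4, Lpl, Cd36 and Cebpd lie lower in all KO libraries and Cebpa and Plin2 higher, whereas the groups overlap for Pparg, Cebpb, Adipoq and Plin1.

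Sequence upstream of the start site is shown for the called genes that RefSeq's mm10 promoter table held: Cebpa and Plin2, which rose, and Cd36, which fell. Each line gives the 250 bases before the annotated start, 5′ to 3′ on the gene's strand, and capitals mark matches on either strand to any of 6 short motifs. These were the C/EBP core (TTNNGNAA), the box named after its letters CCAAT, the TATA box with the letters TATAAA, the hexamer of PPAR and other nuclear receptors with the letters AGGTCA, the E-box that myogenic factors bind with the letters CAGCTG, and a further E-box with the letters CACGTG. The windows are chr7:35119043-35119292 on the plus strand for Cebpa, chr4:86670060-86670309 on the minus strand for Plin2, and chr5:17835897-17836146 on the minus strand for Cd36, a start inside the annotated gene.
Cebpa: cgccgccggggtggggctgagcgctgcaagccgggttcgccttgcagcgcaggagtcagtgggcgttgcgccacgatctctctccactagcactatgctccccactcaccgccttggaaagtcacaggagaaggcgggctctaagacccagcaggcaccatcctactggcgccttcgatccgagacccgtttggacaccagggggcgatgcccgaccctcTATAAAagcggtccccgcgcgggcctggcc
Plin2: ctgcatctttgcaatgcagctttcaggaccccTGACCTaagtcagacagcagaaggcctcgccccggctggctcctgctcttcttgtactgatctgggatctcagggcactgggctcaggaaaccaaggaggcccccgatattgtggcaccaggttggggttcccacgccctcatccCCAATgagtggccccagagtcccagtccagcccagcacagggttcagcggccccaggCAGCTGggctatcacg
Cd36: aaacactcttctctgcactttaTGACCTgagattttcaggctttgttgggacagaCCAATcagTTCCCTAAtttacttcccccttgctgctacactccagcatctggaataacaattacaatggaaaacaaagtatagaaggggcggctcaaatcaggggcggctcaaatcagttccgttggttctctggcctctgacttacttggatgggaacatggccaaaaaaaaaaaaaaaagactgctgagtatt
The Cebpa window was GC-rich (66.4%, against a median of 52.4% over all windows), held the TATA box at 30 bases before the start and no other match. The Plin2 window (61.6% GC) held the receptor hexamer on the reverse strand from 218 bases, the CCAAT box from 73 bases and the myogenic E-box from 16 bases before the start. The Cd36 window (43.2% GC) held the receptor hexamer on the reverse strand from 228 bases, the CCAAT box from 195 bases and the C/EBP core on the reverse strand from 187 bases before the start. No match overlapped another in these windows. Of 32851 windows of that length, 36.8% held the C/EBP core, 33.8% the CCAAT box, 12.4% the TATA box, 14% the receptor hexamer, 13% the myogenic E-box and 6.02% the further E-box. Cebpa and Plin2, which rose, shared no match, while Plin2 and Cd36, which moved in opposite directions, both held the receptor hexamer and the CCAAT box. These matches describe letters only. Cebpd, Fabp4 and Lpl had no entry in the table.

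The early regulator Cebpb encodes C/EBP beta, which is also an inflammatory transcription factor. Cebpb (ENSMUSG00000056501, mm10 chromosome 2, 167688915 to 167690418) stood at 51.2, 39.5 and 51.1 CPM in WT replicates 1 to 3 and at 56.6, 54.7 and 47.4 CPM in KO replicates 1 to 3. The groups overlapped, since KO replicate 3 lay below 2 of the WT libraries. The change was 0.16 (SE 0.11, adjusted p 0.217), with a 95% confidence interval of -0.08 to 0.40. With library size only as the scaling it was called higher (0.33, adjusted p 0.0232). Cebpb shares 20.7% of its exonic bases with Tmem189 on the opposite strand, and Tmem189 was lower in KO (-0.97, SE 0.05). Whether strand was used in counting is not stated in those sources, so reads from these shared bases cannot be assigned to one of the genes with certainty.

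Cebpd, which encodes C/EBP delta and acts beside Cebpb early in the cascade, fell. Cebpd (ENSMUSG00000071637, chromosome 16, 15887286 to 15891031) stood at 46.0, 45.9 and 44.7 CPM in WT and at 38.7, 33.1 and 34.9 CPM in KO. All KO libraries were lower than all WT libraries. The change was -0.36 (SE 0.06, adjusted p 7.51e-06), a 1.28-fold fall. It shares 15% of its exonic bases with Spidr on the opposite strand, which was higher in KO (0.38, SE 0.08).

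Pparg encodes the nuclear receptor PPAR gamma, the central regulator of fat cells. Pparg (ENSMUSG00000000440, chromosome 6, 115360951 to 115490399) was represented by 28, 13 and 28 counts in WT and by 23, 44 and 23 counts in KO, or 1.25, 0.684 and 1.05 CPM against 1.04, 1.75 and 1.21 CPM. The groups overlapped and a change was not called (0.42, SE 0.30, adjusted p 0.222). The 95% confidence interval ran from -0.20 to 1.04, so a rise of up to about that size could not be told from none at this depth. The gene makes a widely expressed form and a fat-cell form from different start sites, which gene counts do not separate.

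Cebpa, which encodes C/EBP alpha and cooperates with PPAR gamma in maturing fat cells, rose. Cebpa (ENSMUSG00000034957, chromosome 7, 35119293 to 35121928) stood at 10.1, 9.48 and 8.36 CPM in WT and at 20.7, 17.4 and 21.7 CPM in KO. The lowest KO library was above the highest WT library. The change was 1.10 (SE 0.10, adjusted p 6.04e-12), a 2.14-fold rise, and 16.1% of tested genes changed by more in either direction. C/EBP alpha is also a factor of the myeloid lineage, and the macrophage marker sum was higher in the same KO libraries; the part of this in the rise was not tested. An antisense gene, Gm45091, covers 1.94% of its exonic bases and had 18 counts in all WT and 5 in all KO libraries.

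The proportions of Cebpa, Cebpb and Cebpd shifted accordingly. On the scale of CPM per kilobase of exon, Cebpa made up 7.61%, 8.53% and 6.46% of their summed level in WT. In KO it made up 14%, 12.8% and 16.8%. This sum leaves out the relatives Cebpg and Ddit3, which stood at 8.45 and 24.9 CPM per kilobase in WT and at 9.71 and 75.0 in KO. The share of Cebpa in the wider family was not computed. The groups did not overlap, and the exact permutation p (two-sided) was 0.1, the smallest that 3 against 3 libraries can give. Among the paralogues outside the list, Ddit3, which encodes the C/EBP inhibitor and stress factor CHOP, rose from 42.6 ± 1.72 to 128.5 ± 9.16 CPM (SD, n = 3 each; 1.59, SE 0.06, adjusted p 8.81e-24); it shares 10.9% of its exonic bases with other gene models. Cebpg, a family member without an activation domain, rose from 47.5 ± 0.994 to 54.6 ± 2.63 CPM (0.20, SE 0.06, adjusted p 0.00276). Of the other PPAR genes, Ppara, the receptor that drives fatty acid oxidation, fell from 2.36 ± 0.387 to 0.741 ± 0.104 CPM (-1.66, SE 0.27, adjusted p 1.85e-06). Ppard, the widely expressed form, stood at 54.6 ± 2.68 and 56.8 ± 2.49 CPM and was not called (0.06, SE 0.06, adjusted p 0.38); with library size only it was called higher (0.23, adjusted p 0.000635).

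**Figure D2:**
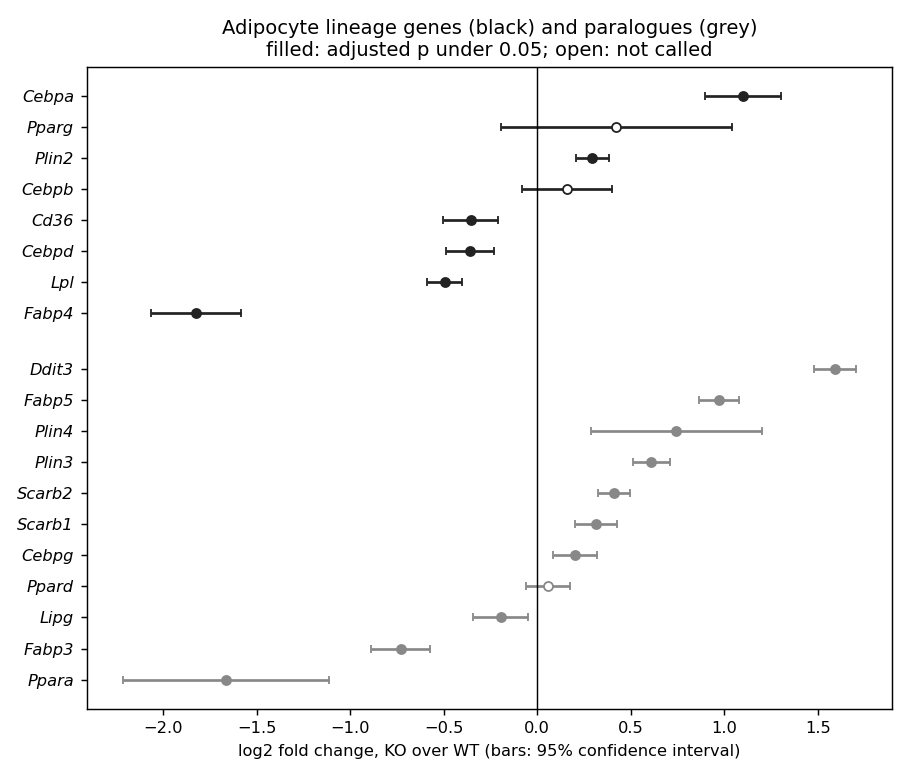
Change of each tested gene as log2 fold change of KO over WT (horizontal axis) with its 95% confidence interval, for the adipocyte lineage genes (black) and their paralogues (grey); filled points were called and open points were not. Among the black points Fabp4 (-1.83) and Cebpa (1.10) lie farthest from 0, and among the grey points Ppara (-1.66) and Ddit3 (1.59).

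Lpl, Cd36 and Fabp4, which release, take up and carry fatty acids, all fell, from 1.28-fold for Cd36 to 3.55-fold for Fabp4. Lpl encodes lipoprotein lipase, which frees fatty acids from circulating lipoproteins. Lpl (ENSMUSG00000015568, chromosome 8, 68880491 to 68907448) stood at 161, 173 and 168 CPM in WT and at 125, 117 and 115 CPM in KO, with no overlap. The change was -0.50 (SE 0.05, adjusted p 9.65e-12), a 1.41-fold fall.

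Cd36 encodes a membrane receptor for long-chain fatty acids. Cd36 (ENSMUSG00000002944, chromosome 5, 17781690 to 17888801) stood at 26.9, 25.1 and 27.1 CPM in WT and at 20.4, 21.3 and 20.0 CPM in KO. All KO libraries were lower than all WT libraries. The change was -0.36 (SE 0.07, adjusted p 6.08e-05), a 1.28-fold fall. With library size only it was -0.19, still called (adjusted p 0.0239).

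Fabp4 encodes the fat-cell fatty acid binding protein, a carrier of fatty acids in the cytoplasm. Fabp4 (ENSMUSG00000062515, chromosome 3, 10204088 to 10208576) had the largest change of the 8 tested genes. It stood at 19.9, 15.9 and 21.9 CPM in WT and at 6.02, 5.38 and 4.90 CPM in KO, from 1335 counts in all WT and 361 in all KO libraries. The highest KO library lay far below the lowest WT library. The change was -1.83 (SE 0.12, adjusted p 8.48e-15), a 3.55-fold fall, and 6.38% of tested genes changed by more.

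The summed endothelial markers were lower in the same libraries as Fabp4, though not all of the 16 genes fell. Aqp1 (1.10, SE 0.09, adjusted p 1.56e-13) and Rgcc (0.999, SE 0.10, adjusted p 9.64e-11), named after their values were seen, were higher. Cdh5, which encodes the endothelial cadherin, went from 173 ± 0.510 to 48.9 ± 1.39 CPM (-1.82, SE 0.05, adjusted p 1.77e-27). Eng, the other most abundant gene of that list, which other stromal cells express as well, went from 137 ± 4.36 to 115.7 ± 1.57 CPM (-0.25, SE 0.04, adjusted p 1.05e-05); this call was lost with library size only (-0.08, adjusted p 0.129). The macrophage gene Lyz2 moved the other way, from 82.5 ± 2.30 to 238 ± 2.96 CPM (1.53, SE 0.04, adjusted p 3.62e-26). The part of endothelial cells or macrophages in the levels of Fabp4, Cd36 and Lpl was not tested.

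**Figure D3:**
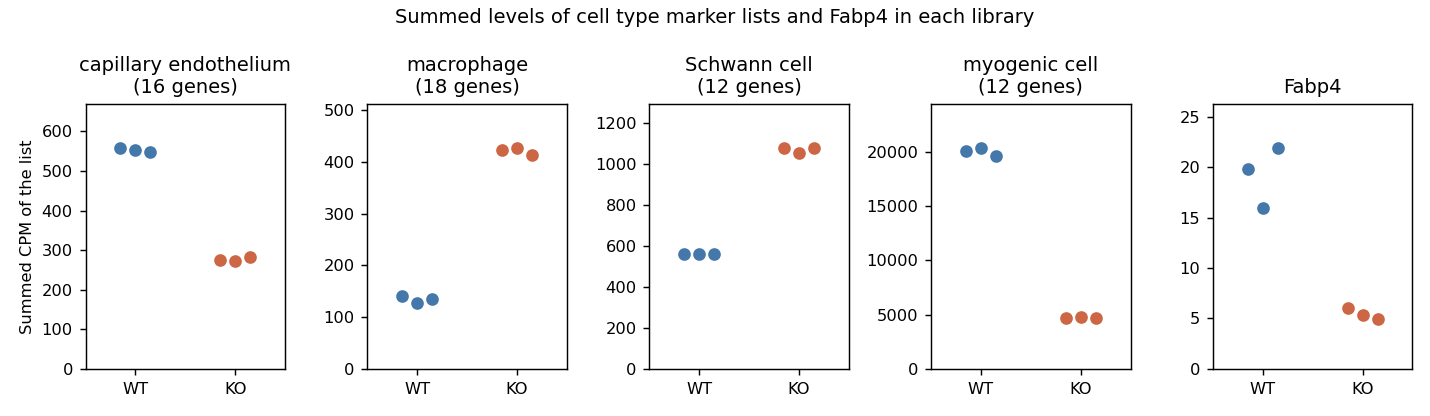
Summed level in CPM (vertical axes from 0) of the marker lists of capillary endothelium, macrophages, Schwann cells and myogenic cells, and the level of Fabp4, with 1 point for each WT and KO library. The endothelial and myogenic sums and Fabp4 are lower in all KO libraries, and the macrophage and Schwann cell sums are higher.

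The related fatty acid binding proteins moved in opposite directions, with Fabp3 falling as Fabp4 did and Fabp5 rising. Fabp5, the epidermal form, which lies beside Fabp4 in a gene cluster, rose from 92.9 ± 8.16 to 182.6 ± 7.97 CPM (0.97, SE 0.05, adjusted p 3.58e-15). Fabp3, the heart and muscle form, fell from 59.0 ± 5.33 to 35.7 ± 3.94 CPM (-0.73, SE 0.08, adjusted p 2.58e-08); it shares 19.6% of its exonic bases with other genes. Fabp5 has processed copies in the genome that can share reads. Per kilobase of exon, Fabp4 made up 4.24%, 3.86% and 4.44% of the summed level of Fabp3, Fabp4 and Fabp5 in WT, and 1.52%, 1.24% and 1.07% in KO. The exact permutation p (two-sided) was 0.1, the smallest possible. The exon lengths used were 4489 bases for Fabp4, its whole gene span, 3567 for Fabp5 and 823 for Fabp3, and the percentages depend on them. In plain CPM too, Fabp4 was the lowest of the 3 in both genotypes, with means of 19.2 in WT and 5.43 in KO.

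Genes that handle lipoprotein lipase and fatty acids moved both ways. Of 19 tested uptake, binding and activation genes, 6 were higher and 8 lower in KO, beside 33.7% and 33% of all tested genes. Their median change was -0.05. The acyl-CoA synthetases Acsl6 (-2.33, SE 0.09) and Acsl1 (-1.78, SE 0.06), which activate fatty acids, and Angptl4 (-1.88, SE 0.11), a secreted inhibitor of lipoprotein lipase and a PPAR target, fell; Acsl1 shares 9.91% of its exonic bases. Gpihbp1, the endothelial anchor of lipoprotein lipase, fell from 4.35 to 0.225 CPM (-4.23, adjusted p 6.62e-15), and was named after its value was seen. The fatty acid transporters Slc27a1 (0.86, SE 0.08) and Slc27a3 (0.60, SE 0.10) and the lipoprotein receptor Lrp1 (0.81, SE 0.04) rose. Of the lipases and scavenger receptors related to Lpl and Cd36, endothelial lipase Lipg was lower (-0.20, SE 0.07, adjusted p 0.0176), but it was not called without WT replicate 1 (-0.18, adjusted p 0.0593), without KO replicate 2 (-0.12, adjusted p 0.167) and with library size only (-0.03, adjusted p 0.762). Scarb1, a receptor for high-density lipoprotein, rose (0.31, SE 0.06), as did the lysosomal Scarb2 (0.41, SE 0.04). Hepatic lipase Lipc was below the filter, at 0.0573 CPM in WT and 0.0725 CPM in KO.

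Of the lipid droplet coat proteins, the general form Plin2 was abundant and the fat-cell form Plin1 was nearly absent. Plin2 (ENSMUSG00000028494, chromosome 4, 86648386 to 86670060), which encodes perilipin 2 and coats droplets in most cells, stood at 175, 167 and 172 CPM in WT and at 203, 217 and 209 CPM in KO. All KO libraries were higher than all WT libraries. The change was 0.29 (SE 0.04, adjusted p 2.69e-07), a 1.23-fold rise. Plin1 (ENSMUSG00000030546, chromosome 7, 79720218 to 79732903), which guards the large droplet of fat cells, had 2, 1 and 4 counts in WT and 1, 5 and 1 counts in KO, and was not tested.

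Among the other perilipins, Plin3, found in many tissues, rose from 69.2 ± 2.01 to 105.6 ± 2.88 CPM (0.61, SE 0.05, adjusted p 2.82e-13). Plin4 rose from 1.52 ± 0.0816 to 2.56 ± 0.255 CPM (0.74, SE 0.22, adjusted p 0.00411). Plin5, the form of oxidative tissues, was below the filter, at 0.0697 CPM in WT and 0.0851 CPM in KO. Per kilobase of exon, Plin2 made up 73.5%, 71.5% and 73.1% of the sum of Plin2 and Plin3 in WT and 67.5%, 69.5% and 67.4% in KO, without overlap; the exact permutation p (two-sided) was again 0.1, the smallest possible.

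Adiponectin, the hormone encoded by Adipoq, was hardly detected. Adipoq (ENSMUSG00000022878, chromosome 16, 23146536 to 23158028) had 0, 2 and 7 counts in WT and 5, 4 and 3 counts in KO, and was not tested. The count of 0 in WT replicate 1 allows a level of up to 0.134 CPM (3 counts of the library's TMM-scaled total; counting error only). Fitted without the low-count filter, Adipoq gave a change of 0.46 (SE 0.85, adjusted p 0.691) and Plin1 one of 0.02 (SE 1.01, adjusted p 0.995). A further fat-cell marker, the adipokine Cfd, had 9, 4 and 13 counts in WT and 0, 2 and 0 in KO, also below the filter. The fat-cell markers Cidec, Lep and Retn were not analysed here. Adipoq, Plin1 and Cfd were each below 0.5 CPM in every library.

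Per kilobase of exon, the order of the levels in WT was Plin2 (48.7 ± 1.19), Cebpb (31.4 ± 4.46), Lpl (16.0 ± 0.568), Cebpd (12.2 ± 0.189), Cd36 (7.34 ± 0.299), Fabp4 (4.28 ± 0.680), Cebpa (3.53 ± 0.328), Pparg (0.336 ± 0.0964), Adipoq (0.0885 ± 0.0952) and Plin1 (0.0209 ± 0.0105). The ranges of neighbours in this order overlapped for Fabp4 and Cebpa and for Adipoq and Plin1. The length used counts every base of any annotated exon: 4489 for Fabp4, which is its whole gene span, and 10478 for Lpl. Places in the order, and the shares of genes given below, depend on these lengths. Levels by the length of the mRNA were not computed. In KO the first 4 places were the same, but Cebpa (7.56 ± 0.844) came before Cd36 (5.74 ± 0.188) and Fabp4 (1.21 ± 0.126), and no neighbours overlapped. Against 21632 genes with a length, Plin2 lay above 95.6% of genes in WT and 96.8% in KO, Cebpb above 92.4% and 94.0%, Fabp4 above 63.4% and 46.0%, Cebpa above 60.3% and 73.6%, and Pparg above 33.0% and 34.9%.

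**Figure D4:**
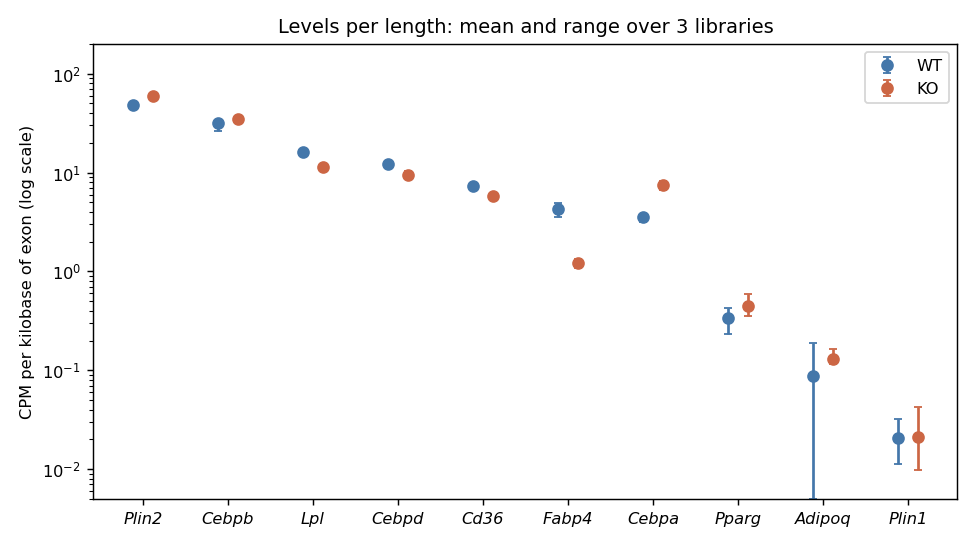
Level of the 10 genes as CPM per kilobase of exon (vertical axis, log scale), ordered by the WT mean, with WT in blue and KO in orange; points are means and bars the range over 3 libraries, and the WT bar of Adipoq runs off the axis because 1 library had 0 counts. Plin2 and Cebpb lead in both genotypes, and Adipoq and Plin1 lie lowest. Cebpa lies above Cd36 and Fabp4 in KO, whereas in WT it lies below Cd36 and overlaps Fabp4.

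More of the wider fat and lipid genes were lower than higher, in 11 lists written with earlier results of these data known. Of 171 tested genes other than the members, 51 were higher and 80 lower in KO, and their median change was -0.12. Thus 76.6% were called, beside 66.7% of all tested genes. The shares of all tested genes beside which each list stands were 33.7% higher and 33% lower. With library size only the balance turned, to 67 higher and 61 lower and a median of 0.05, against 0.19 for all tested genes. Regulators that promote fat cell formation were split, with 7 higher and 10 lower of 25 tested (median -0.02). Prdm16, a factor of brown fat, went from 3.52 ± 0.582 to 12.4 ± 1.24 CPM (1.82, SE 0.13), and Klf15 (1.49, SE 0.14) and Zfp467 (0.74, SE 0.10) rose. Klf5, which cooperates with Cebpb and Cebpd on Pparg, fell from 80.4 ± 2.64 to 20.0 ± 2.27 CPM (-2.01, SE 0.07, adjusted p 9.92e-24), as did the coactivators of PPAR gamma Ppargc1a (-2.28, SE 0.13) and Ppargc1b (-0.89, SE 0.15). With library size only, 11 of these regulators were higher.

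Regulators that restrain fat cell formation were also split, with 8 higher and 8 lower of 21 tested (median -0.10), and with library size only 4 were lower. Wnt10b, a Wnt ligand that blocks Pparg and Cebpa, rose from 1.31 ± 0.635 to 5.66 ± 0.584 CPM (2.16, SE 0.22), as did Ccn5 (1.13, SE 0.07) and Runx1t1 (0.67, SE 0.10). Dlk1, the preadipocyte factor, rose from 0.512 to 3.73 CPM (2.79, adjusted p 4.69e-11), and was named after its value was seen. Wnt5a (-0.74, SE 0.05), Sox9 (-0.56, SE 0.09) and Foxc2 (-0.47, SE 0.10) fell. Of 17 tested fibro-adipogenic progenitor markers, 6 were higher and 6 lower (median -0.03). Hic1 (0.85, SE 0.05) and Tcf7l2 (0.63, SE 0.10) rose, Tnfaip6 was higher (0.58, adjusted p 0.0111; 0.31 and adjusted p 0.169 without KO replicate 1), and Cd55 (-1.49, SE 0.10), Cxcl14 (-0.84, SE 0.15) and Dcn (-0.59, SE 0.04) fell. Pdgfra, a receptor used as a marker of these progenitors, rose from 69.5 to 90.5 CPM (0.38, adjusted p 5.4e-08), and was named after its value was seen. It shares 6.50% of its exonic bases with other gene models.

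Lipid storage genes moved both ways. Of 13 tested droplet and lipolysis genes, 5 were higher and 6 lower (median 0.12): the droplet-forming proteins Fitm1 (-2.17, SE 0.12) and Fitm2 (-1.54, SE 0.06) and the lipase Pnpla2 (-0.42, SE 0.06) fell, whereas the seipin gene Bscl2 (0.65, SE 0.07), the lipase inhibitor G0s2 (0.69, SE 0.17) and hormone-sensitive lipase Lipe (0.65, SE 0.17) rose. Fitm1, Fitm2, Bscl2 and Lipe share 11.2%, 5.72%, 10.8% and 15.6% of their exonic bases with other genes. Of 15 tested triacylglycerol synthesis genes, 2 were higher and 9 lower (median -0.27), with Gpd1 (-1.53, SE 0.11; 13.0% of exonic bases shared), Dgat2 (-1.10, SE 0.10) and Lpin3 (-1.04, SE 0.09) falling and Lpin1 (0.38, SE 0.05) rising; with library size only, 4 were higher and 5 lower. The other of the 2, Agpat2 (0.19, adjusted p 0.0487), was lost under 9 of 12 alternatives, among them those without WT replicate 1, 2 or 3 (0.21, 0.17 and 0.14; adjusted p 0.0548, 0.109 and 0.211) and without KO replicate 2 or 3 (0.16 and 0.18; adjusted p 0.135 and 0.0848). Of 15 tested fatty acid synthesis genes, 8 were higher and 5 lower (median 0.12). Fads1 (0.63, SE 0.04), Slc25a1 (0.59, SE 0.05) and fatty acid synthase Fasn (0.51, SE 0.04) rose, and Acacb (-2.05, SE 0.10) and the desaturases Scd2 (-0.38, SE 0.05) and Scd1 (-0.38, SE 0.04) fell.

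PPAR response genes outside fat were mostly lower, with 1 higher and 12 lower of 15 tested (median -0.49). Of all tested genes, 33.7% were higher and 33% lower. Pdk4, a brake on glucose oxidation, fell from 63.0 ± 3.35 to 13.5 ± 1.99 CPM (-2.24, SE 0.08), Pex11a (-1.29, SE 0.13) and the mitochondrial acyl-CoA dehydrogenase Acadl (-0.96, SE 0.04) fell, and Cpt2 rose (0.22, SE 0.06). Of 12 tested hormone and fat-cell marker genes, 1 was higher and 7 lower (median -0.25). The insulin-responsive glucose transporter Slc2a4, which muscle also makes, fell from 60.9 ± 5.20 to 13.1 ± 1.28 CPM (-2.23, SE 0.08), and Cdh13, a receptor for adiponectin, from 132 ± 4.86 to 27.2 ± 1.33 CPM (-2.28, SE 0.06). Mest, a marker of fat expansion that is also imprinted, rose (1.36, SE 0.06; 23.1% of exonic bases shared). Of 9 tested brown and beige fat genes, 1 was higher and 6 lower (median -1.10), including Tbx1 (-1.51, SE 0.14) and Cox7a1 (-1.45, SE 0.20), both also muscle genes. The gene at this median had only 109 counts in all WT and 50 in all KO libraries, and some others of the 9 had fewer. Cox8b was lower too (-0.33, adjusted p 0.0218), but not without WT replicate 3 (-0.25, adjusted p 0.116), without KO replicate 3 (-0.19, adjusted p 0.164) or with library size only (-0.16, adjusted p 0.253). The myogenic marker sum was lower in the same KO libraries; its part in these lists was not tested.

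**Figure D5:**
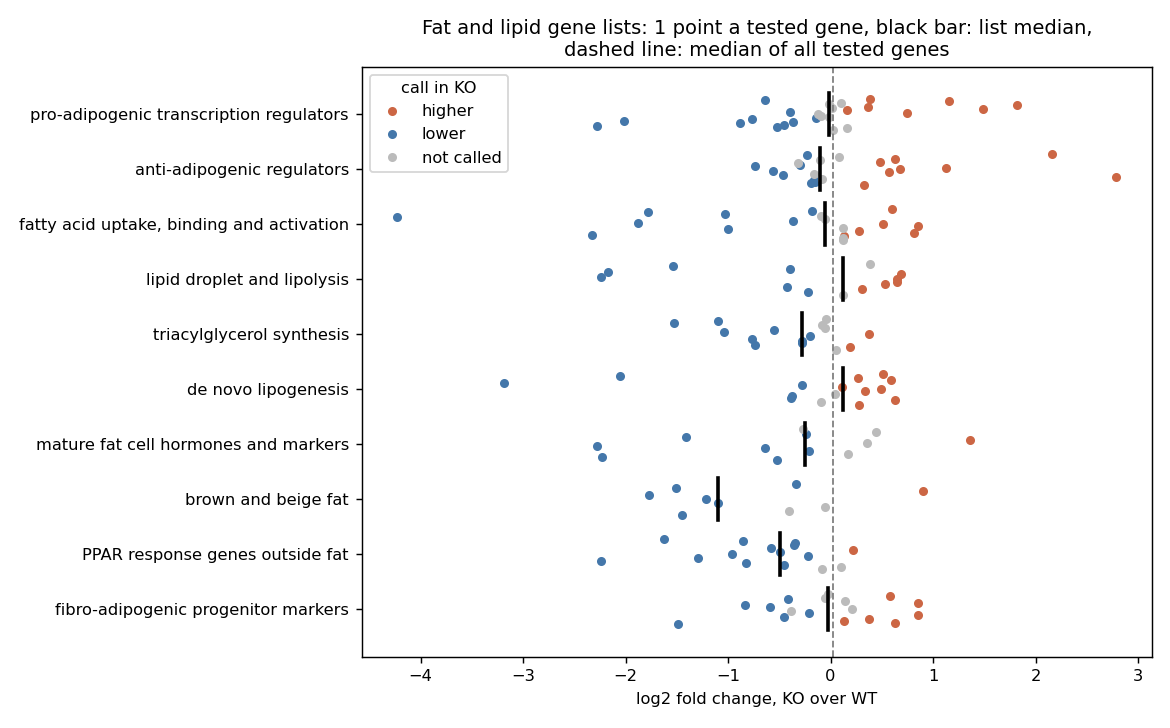
Change of each tested gene (points; log2 fold change of KO over WT on the horizontal axis) in 10 lists of fat and lipid genes, coloured by call, with the list median as a black bar and the median of all tested genes (0.02) as a dashed line. Calls in both directions occur in all lists, and the medians of the brown and beige fat list (-1.10) and of the PPAR response list (-0.49) lie farthest below the dashed line. Several genes of the brown and beige fat list, the one at its median among them, had low counts.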

How the data were processed

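RNA-seq counts of 6 libraries (3 WT, 3 KO, grouped by genotype label) were analysed. The values are unnormalised counts per Ensembl gene, deposited as a matrix of the series and as 1 table for each library. The mm10 build, featureCounts 2.0.1 and HISAT2 2.2.1 are named in the submitters' processing notes; for the annotation, counting options and strand the sources used here give nothing. For 0 of the 10 genes did the mean of the per-library tables lie within 0.8 to 1.25 times the matrix mean, as for 5.84% of 9941 genes with a matrix mean of at least 200. Means in those tables were near 0 for most of the 10 genes (Lpl 0.167 against 3212 in the matrix, Cebpb 0.667 against 1132, Cebpa 0 against 323, Fabp4 0.333 against 283). Some myogenic markers were at 0 there too, such as Myod1 (0 against 4458) and Myh3 (0 against 75025). Others were not: Ttn had a mean of 18316 against 25172.5, and Pax7 was higher in those tables (986 against 283). The table totals were 5501088 to 9136354 counts. The cause of these differences was not tested. All results rest on the matrix, in which the myogenic markers of these cells are abundant.

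Symbols, lengths and coordinates came from GENCODE M21 (mm10), and the length of a gene is the union of all its annotated exons. Shared exonic bases were found with bedtools 2.31.1. Genes were kept by filterByExpr (minimum count 10, minimum total 15) of edgeR 4.0.16 in R 4.3.3, scaled by TMM and compared between genotypes by the quasi-likelihood F-test without other terms. The SE is the change divided by the square root of F. The test was checked on simulated counts. Family shares were compared by exact permutation tests. Mean chi-square per gene of replicate pairs was 3.18 to 5.11, above sampling noise, so no library was taken as a duplicate.

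Alternatives were median-of-ratios factors, library size only, no filter, DESeq2 1.42.0, limma 3.58.1 voom, a replicate block and leaving out each library. The members and lists were chosen with earlier results of these data known. All members and paralogues were named, and of each other list up to 3 genes called higher and 3 called lower with the largest changes among those at 5 CPM or more in the higher group; of marker lists, the 2 most abundant where described. A gene that this rule named is not reported here.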

Additional observations from a re-analysis of the deposited data

How the results depend on the processing

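Under 12 alternatives for each of the 8 tested adipocyte lineage genes, no direction reversed, and of 96 values 95 kept their side of the threshold. The exception was Cebpb, called higher with library size only (0.33, adjusted p 0.0232). The number of adipocyte lineage genes called was 6 under 11 alternatives and 7 with library size only. Fabp4 ran from -1.95 to -1.66 and Cebpa from 1.01 to 1.27 over the alternatives. Replicate numbers are shared between the genotypes in the labels, but deviations of same-numbered libraries correlated at -0.001, -0.009 and -0.025, and 0 of 6 libraries correlated best with its own number. With the number as a replicate block, 6 of the 10 genes and 10209 of all tested genes were called, against 6 and 10353 without it, and of the list genes named only Agpat2 lost its call (0.18, adjusted p 0.0659). Triacylglycerol synthesis genes called higher were 2 in the reported fit, 1 under 9 alternatives and 4 with library size only. Outside the 10 genes, Myf5, which was not called, turned from -0.149 to 0.021 with library size only. Low counts limit Pparg, Adipoq and Plin1.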
